A study of Homo sapiens with 6 samples.

Results

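The interferon-stimulated and RNA-sensing genes were 39 genes, taken from a list by symbol and matched to the gene IDs of the deposited tables through GENCODE 44. The tables held 30061 gene IDs, and 27 of the 39 genes had values. Sequencing covered 3 libraries of A549, an established human lung adenocarcinoma line, and 3 of A549/DDP, the cisplatin-resistant line derived from it (spelled A549/DPP in the labels). Both lines were used at passages 6 to 8, and the medium of the A549/DDP cells alone contained cisplatin (DDP), at 1 µg/mL, so that an effect of the drug cannot be told apart from resistance. Resistant and parental cells are each represented by 1 line, and separate cultures are not mentioned in the labels. The p values therefore speak only to the spread among these libraries, which may be technical.

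Interferons are secreted proteins that cells release when they sense viral or misplaced nucleic acids. Sensors such as RIG-I and MDA5 bind double-stranded RNA in the cytoplasm and signal through the adaptor MAVS, while STING relays the sensing of DNA. Type I interferon bound to its receptor activates JAK1 and TYK2, and a complex that includes STAT2 and IRF9 then binds a DNA motif, the interferon-stimulated response element, in front of antiviral genes.

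The unit was FPKM, the fragments of a transcript scaled to its length and to the mapped fragments of the library, and a gene sum is the sum over all transcripts listed for a gene. None of the 118 transcripts of the 27 genes had the span of coding transcripts alone: 56 were retained introns, 24 belonged to coding genes but had no coding sequence defined, 2 were targets of nonsense-mediated decay, and 36 matched no annotated span. The values of named transcripts below are therefore those of non-coding transcripts and not of the mRNAs that encode the proteins, and for the 36 others coding status is unknown. Read numbers were not given with the FPKM, so depth is unknown. The FPKM of a library summed to 58042 to 62589 in A549 and to 65142 to 68665 in A549/DDP. Across 10591 gene sums, the Pearson correlation between libraries on the log2 scale was 0.851 to 0.861 within A549, 0.897 to 0.904 within A549/DDP and 0.76 to 0.809 between the lines. Genes are not independent replicates. The epithelial keratins KRT7, KRT8 and KRT18 lay between 114.8 and 2043 FPKM in all 6 libraries, whereas the leukocyte marker PTPRC, the fibroblast marker DCN and the endothelial markers PECAM1 and VWF were listed at 0. Of other markers, CD3E of T cells was 0.112 FPKM in A549 replicate 3 alone, COL3A1 was 0.113 FPKM in A549/DDP replicate 1 alone, and COL1A1 of fibroblasts was 0.227 to 0.706 FPKM in all 6 libraries. The epithelial genes EPCAM and KRT19 were low, at 1.93 FPKM or less. KRT8 was higher in A549/DDP (log2 fold change 2.11, limma adjusted p = 0.00423). Only 347 of all 81818 transcripts matched coding spans alone. The values of these markers and of the further genes below therefore need not be those of mRNAs, and a 0 does not show that a cell type is absent.

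The response element is part of what ties these genes together, and its letters were looked up in the promoters of the genes. RefSeq promoter windows (GRCh38.p14, 250 bases before to 50 after the start of the gene) were matched for 31 of the 39 genes. Its core, the word GAAA followed by any 2 bases and GAAA again, on either strand, stood in 20 of the 31 windows (64.5%) and in 996 of 27305 windows of all genes (3.65%). The gamma-activated site, TTCNNNGAA, which reads the same on both strands and is a motif of the response to interferon gamma, stood in 6 of the 31 windows (19.4%) and in 7.88% of all windows. A match of letters is a description and does not show that a factor binds there. Of the 12 genes with enough signal to be tested, 6 had the response element core, and the windows of these 6 are shown as examples of the motif. They lie at chr15:88638937-88638966 (ISG20, plus strand), chr2:37156967-37156996 (EIF2AK2, minus strand), chr12:112938452-112938481 (OAS3, plus strand), chr6:32838778-32838807 (TAP2, minus strand), chr15:44711363-44711392 (B2M, plus strand) and chr3:122680800-122680829 (PARP14, plus strand). Capitals mark a single core for each gene, and each run is written from 5′ to 3′ on the strand of the gene.
ISG20: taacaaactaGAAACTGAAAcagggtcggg
EIF2AK2: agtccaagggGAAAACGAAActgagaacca
OAS3: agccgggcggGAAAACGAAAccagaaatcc
TAP2: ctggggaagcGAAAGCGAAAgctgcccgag
B2M: gagactctaaGAAAAGGAAActgaaaacgg
PARP14: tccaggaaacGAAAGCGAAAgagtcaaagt

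In these windows the first base of the marked core lies 69 bases before the start of ISG20, 6 before that of EIF2AK2, 12 before that of OAS3, 58 before that of TAP2, 144 before that of B2M and 29 before that of PARP14. The marked cores of EIF2AK2 and OAS3 are the same 10 letters, and so are those of TAP2 and PARP14. OAS3 and B2M have a further core that is not marked, 143 and 138 bases before the start. Both further cores have the letters of the ISG20 core, and that of B2M overlaps its marked core. The windows of PSMB8, ADAR, STAT2, IRF9, IFI35 and OAS1 do not hold the core letters. Only a single window was searched for each gene, so other starts of a gene are not covered. Both groups of promoters include genes with log2 fold changes above 0 and below 0.

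The comparison asked whether these genes differ between the resistant line and its parent. None of the 12 tested genes passed the thresholds in either direction (limma adjusted p under 0.01 and absolute log2 fold change over 1). A gene was tested when its sum reached 0.5 FPKM in at least 3 of 6 libraries. Over all 10591 gene sums, 1.39% were called higher and 0.963% were called lower in A549/DDP. With quantile normalization these counts moved from 147 higher and 102 lower to 105 higher and 123 lower, and with median-ratio scaling to 94 higher and 118 lower. An unadjusted p under 0.05 was found for 3 of the 12 genes, OAS1, PSMB8 and ISG20, against 27.1% of all gene sums. The log2 fold change on the log2(FPKM + 1) scale ranged from -0.79 to 1.31, with 5 genes above 0 and 7 below. Over all 10591 gene sums, 6620 were above 0 and 3971 below. That scale understates the change of genes with low values. PSMB8 and OAS3 were under 1 FPKM in every library, so on that scale neither could change by more than 1 or be called. The median log2 fold change of the 12 genes was -0.11, and that of all gene sums was 0.17. Both scalings moved the median of all gene sums close to 0, to 0.01 and 0.02. That of the 12 genes moved to -0.25 with quantile normalization and to -0.31 with median-ratio scaling. The values of the 3 A549 libraries and the 3 A549/DDP libraries did not overlap for 2 genes that were higher in A549/DDP (OAS1 and ADAR) and for 3 that were lower (ISG20, PSMB8 and PARP14). Over all gene sums these shares were 21.8% and 10.4%. OAS1 passed the filter only through A549/DDP and PSMB8 only through A549, the line where each was higher. The filter thus favoured their separation, which is no independent support for a difference. A p that misses the threshold does not show that the lines are alike. In bulk RNA, fewer cells that hold a transcript and less of it per cell cannot be told apart.

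**Figure D1:**
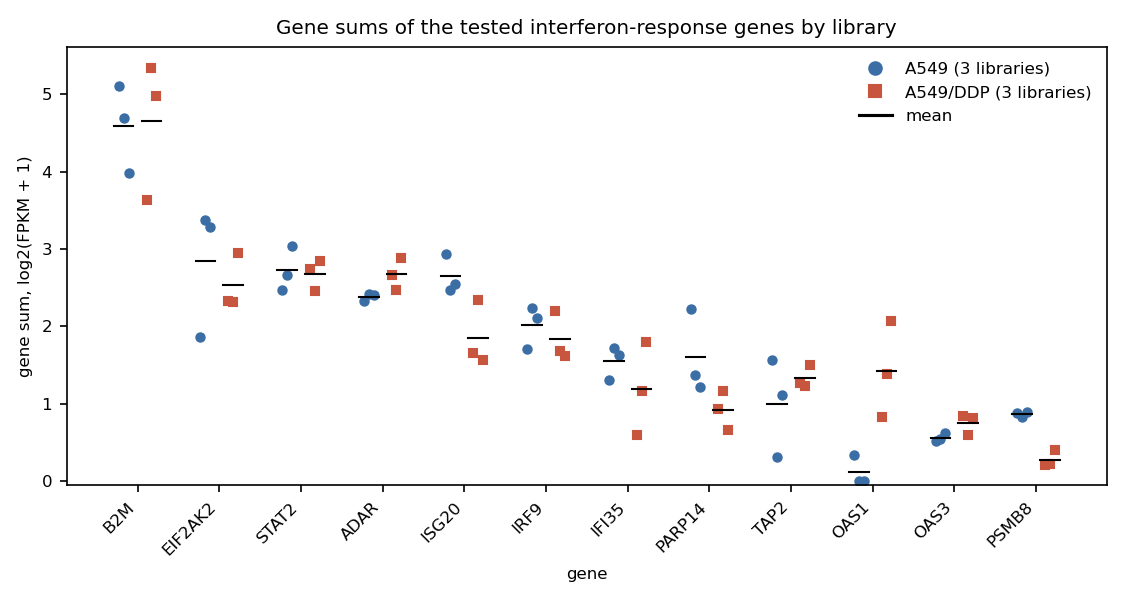
Gene sums of the 12 tested genes on the log2(FPKM + 1) scale (vertical axis), ordered by mean level, with a point for each library of A549 (circles) and A549/DDP (squares) and a bar at the mean. The groups do not overlap for OAS1, ADAR, ISG20, PSMB8 and PARP14.

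By mean level over the 6 libraries, B2M stood first at 25.8 FPKM, above 97.3% of all tested gene sums or level with them. EIF2AK2 (5.92 FPKM), STAT2 (5.57), ADAR (4.82), ISG20 (4.03) and IRF9 (2.86) followed. IFI35, PARP14 and TAP2 lay between 1.32 and 1.69 FPKM, and OAS1 (0.975), OAS3 (0.579) and PSMB8 (0.521) were lowest. Neighbours in this order overlapped across libraries, apart from the step from B2M to EIF2AK2. The spread within a line was wide, with a median coefficient of variation over the 12 genes of 24% in A549 and 34% in A549/DDP. ADAR in A549 had the narrowest at 4.48%. Of the 27 genes with values, 9 had a mean of at least 1 FPKM and 18 were below it.

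Among the antiviral effectors, ISG20, an exonuclease that degrades RNA, had the highest level. Its gene sum was 6.62, 4.53 and 4.82 FPKM in A549 replicates 1 to 3 and 2.14, 4.08 and 1.97 FPKM in A549/DDP. All A549 libraries lay above all A549/DDP libraries, and A549/DDP replicate 2 came within 0.5 FPKM of the lowest A549 library. This gave a log2 fold change of -0.79 (SE 0.29, limma adjusted p = 0.123), and leaving out single libraries gave -1.03 to -0.65. The gene sum combines 7 transcripts. ISG20-204, a retained intron at chr15:88646912-88655649 that covers exons 3 and 4, did not overlap between the lines, with 2.32, 1.64 and 1.83 FPKM in A549 and 0.529, 0.841 and 1.42 FPKM in A549/DDP (log2 fold change -0.62, limma adjusted p = 0.212). ISG20-207, which lies before the first exon of the main transcript, overlapped between the lines. An ISG20 transcript without an annotated span, at chr15:88638963-88655616, had 1.46 and 1.24 FPKM in A549 replicates 1 and 2 and was listed at 0 in the other 4 libraries.

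IFI35, which forms a complex with NMI, was the other effector with enough signal. The sum was 1.48, 2.31 and 2.10 FPKM in A549 and 0.512, 1.24 and 2.48 FPKM in A549/DDP. A549/DDP replicate 3 was the highest of all 6 libraries and replicate 1 the lowest (log2 fold change -0.37, SE 0.33, limma adjusted p = 0.507). Its transcript IFI35-208 was lower in the mean of A549/DDP (log2 fold change -0.66, limma adjusted p = 0.189), but the groups overlapped.

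Among the sensors and RNA-activated enzymes, OAS1 had the largest difference of the 12 genes. OAS1 makes 2-5A from ATP when it binds double-stranded RNA, which activates RNase L. Its gene sum was 0.263, 0 and 0 FPKM in A549 and 0.775, 1.604 and 3.21 FPKM in A549/DDP. The lowest A549/DDP library lay above the highest A549 library, while the A549/DDP libraries differed widely among themselves. In log2 terms the fold change was 1.31 (SE 0.31, limma adjusted p = 0.0375), with adjusted p between 0.0285 and 0.102 when single libraries were left out. Its size depended on the pseudocount, with 3.47 at 0.1 and 5.73 at 0.01 (limma adjusted p = 0.0325 and 0.0712). The gene passed the filter only through the A549/DDP libraries. The sum is a single transcript without an annotated span at chr12:112906973-112916955, on the plus strand from exon 1 to exon 4 of the 6 exons of the main transcript, and whether it is coding is unknown. An antisense lncRNA that overlaps OAS1, OAS2 and OAS3 (ENSG00000257452) was listed at 0 in every library.

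OAS3, a relative of OAS1 that makes the same messenger, had 0.430, 0.455 and 0.534 FPKM in A549 and 0.791, 0.510 and 0.753 FPKM in A549/DDP. The groups overlapped at A549/DDP replicate 2, and the difference was small (log2 fold change 0.19, SE 0.17, limma adjusted p = 0.515). OAS2 was listed at 0 in every library.

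EIF2AK2, the kinase PKR that halts translation when it binds double-stranded RNA, had the highest level of the sensors. Its gene sum was 2.65, 9.39 and 8.75 FPKM in A549 and 4.03, 3.97 and 6.71 FPKM in A549/DDP. A549 replicate 1 was the lowest of the 6 libraries, and the other 2 A549 libraries were the highest. The log2 fold change was -0.31 (SE 0.42, limma adjusted p = 0.674), and without A549 replicate 1 it was -0.80. The low value came from EIF2AK2-205, a retained intron over exons 15 to 17, which was 0.634 FPKM in A549 replicate 1 and 5.41 and 7.19 FPKM in the other A549 libraries.

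ADAR, which converts adenosine to inosine in double-stranded RNA, had 4.001, 4.34 and 4.31 FPKM in A549 and 5.35, 4.52 and 6.41 FPKM in A549/DDP. The groups did not overlap, but the gap between A549 replicate 2 and A549/DDP replicate 2 was narrow. The log2 fold change of 0.29 (SE 0.23, limma adjusted p = 0.452) was close to the median of all gene sums. Of its 7 transcripts, ADAR-209, a retained intron over exons 10 to 12 at chr1:154585993-154588602, was 0.516, 0.635 and 0.957 FPKM in A549 and 1.54, 1.37 and 2.07 FPKM in A549/DDP (log2 fold change 0.64, limma adjusted p = 0.154). In the other direction, ADAR-206 was 0.0773, 0.0675 and 0.0944 FPKM in A549 and 0.0244, 0.0410 and 0.0405 FPKM in A549/DDP. An ADAR transcript without an annotated span was also lower in A549/DDP, at 0.414, 0.536 and 0.343 FPKM against 0.278, 0.267 and 0.240 FPKM. Both stayed under the filter, and the remaining 4 transcripts overlapped between the lines.

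Among the transcription factors, STAT2 and IRF9, subunits of the complex that binds the response element, had log2 fold changes close to 0. STAT2 was 4.53, 5.34 and 7.19 FPKM in A549 and 5.67, 4.50 and 6.21 FPKM in A549/DDP (log2 fold change -0.04, SE 0.25, limma adjusted p = 0.938). IRF9 was 2.27, 3.73 and 3.30 FPKM in A549 and 3.59, 2.21 and 2.07 FPKM in A549/DDP (log2 fold change -0.19, SE 0.27, limma adjusted p = 0.699). The gene sums of both lines were interleaved for both genes. A STAT2 transcript without an annotated span, over exons 1 to 10, was listed at 0 in A549 and was 0.796, 0.438 and 0.611 FPKM in A549/DDP. STAT2-204 and an IRF9 transcript over exons 1 and 2 were also higher in all A549/DDP libraries. These transcripts stayed under the filter, and the other transcripts of both genes overlapped between the lines. STAT2-207, which covers exons 14 to 24, made up 63.2% of the STAT2 sum.

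The antigen-processing genes of the group prepare peptides for MHC class I. PSMB8, PSMB9, TAP1 and TAP2 lie side by side on chromosome 6. PSMB8, a catalytic subunit of the immunoproteasome, had 0.837, 0.779 and 0.864 FPKM in A549 and 0.157, 0.164 and 0.322 FPKM in A549/DDP. The A549 libraries were close together and every one lay well above the A549/DDP libraries. PSMB8 had a log2 fold change of -0.59 (SE 0.16, limma adjusted p = 0.0565), and the adjusted p was 0.0684 to 0.182 when single libraries were left out and 0.0246 with quantile normalization. On the log2(FPKM + 1) scale its change could not exceed 1 in size. It was -1.60 at a pseudocount of 0.1 and -1.97 at 0.01 (limma adjusted p = 0.0812 and 0.106). The gene passed the filter only through the A549 libraries. PSMB8-204, a retained intron on the minus strand at chr6:32841021-32844651 that spans exons 1 to 6, was 0.591, 0.540 and 0.638 FPKM in A549 and 0.0440, 0 and 0.167 FPKM in A549/DDP (log2 fold change -0.57, limma adjusted p = 0.0608), and it too passed the filter only through A549. The other PSMB8 transcript, over exons 5 and 6, also did not overlap between the lines.

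PSMB8-AS1, a lncRNA on the opposite strand, overlaps PSMB8 by 602 bases and TAP1 by 1292 bases. Its gene sum was 1.34, 0.590 and 1.20 FPKM in A549 and 0.0560, 0 and 0 FPKM in A549/DDP. Every A549 library lay above the A549/DDP libraries (log2 fold change -0.98, SE 0.19, limma adjusted p = 0.0200), and the adjusted p over the alternatives was 0.0125 to 0.084. It passed the filter only through the A549 libraries. The kit was strand-specific, but whether strand entered the quantification is not given in the sources used here, so reads of PSMB8 and of its antisense partner may not be separated where they overlap.

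The transporter subunit TAP1 stayed under the filter. TAP1-203, a retained intron over exons 8 to 11, was 0.145, 0.293 and 0.117 FPKM in A549 and 0, 0 and 0.00576 FPKM in A549/DDP. The longer TAP1-202 was 0.179, 0.0805 and 0.199 FPKM in A549 and 0.569, 0.161 and 0.160 FPKM in A549/DDP, with overlapping groups. Only the shorter transcript thus separated the lines, and at a level too low to be tested.

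TAP2, the partner of TAP1 in the transporter, overlapped between the lines. Its gene sum was 1.97, 0.246 and 1.17 FPKM in A549 and 1.40, 1.34 and 1.82 FPKM in A549/DDP (log2 fold change 0.33, SE 0.32, limma adjusted p = 0.557). A549 replicate 2 was far below the other libraries, and without it the log2 fold change was -0.015. A TAP2 transcript without an annotated span, over exons 6 and 7, was 0.639, 0.149 and 0.756 FPKM in A549 and 1.29, 1.18 and 1.68 FPKM in A549/DDP (log2 fold change 0.67, limma adjusted p = 0.158). PSMB9, which also encodes a subunit of the immunoproteasome, did not exceed 0.144 FPKM in any library.

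**Figure D2:**
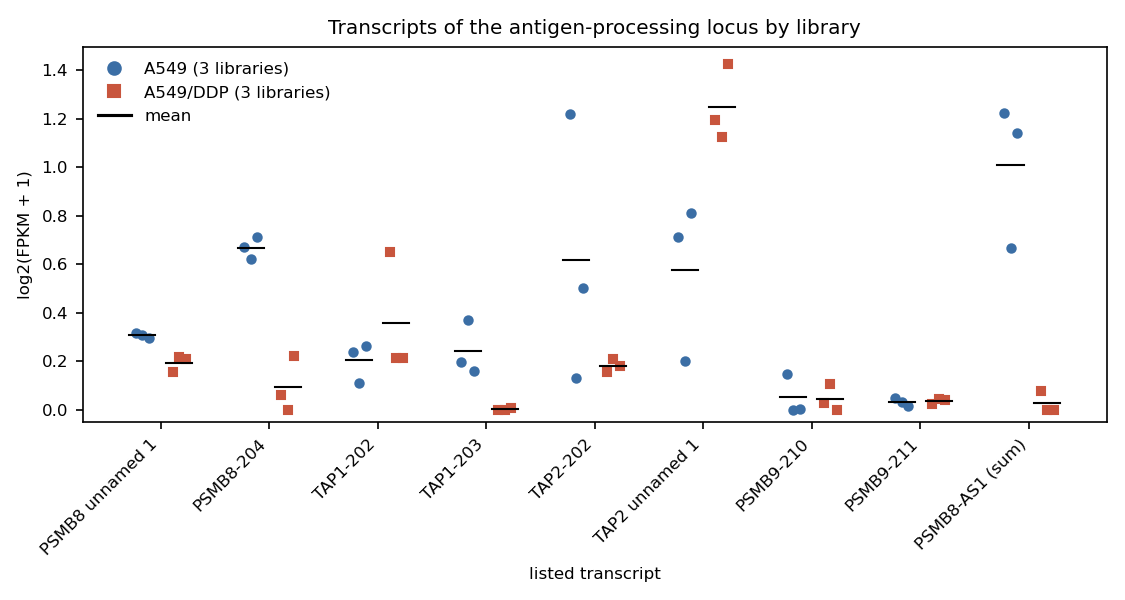
Transcripts of PSMB8, TAP1, TAP2 and PSMB9 and the gene sum of PSMB8-AS1 on the log2(FPKM + 1) scale (vertical axis), with a point for each library and a bar at the mean. PSMB8-204, the other PSMB8 transcript (unnamed), TAP1-203 and PSMB8-AS1 are lower in all 3 A549/DDP libraries, and the unnamed TAP2 transcript is higher.

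B2M, the light chain of MHC class I, was the most abundant gene and the most variable in absolute terms. The sum was 33.5, 24.9 and 14.8 FPKM in A549 and 11.5, 39.6 and 30.5 FPKM in A549/DDP. The lines overlapped fully, and the log2 fold change of 0.06 (SE 0.47, limma adjusted p = 0.953) turned to -0.18 with median-ratio scaling. B2M-203, a retained intron over exons 1 to 4, held 66.3% of the sum and was 28.5, 17.7 and 5.96 FPKM in A549 and 9.90, 35.6 and 4.97 FPKM in A549/DDP. B2M-210, over exons 3 and 4, was 4.95, 6.87 and 8.43 FPKM in A549 and 0.276, 3.21 and 24.4 FPKM in A549/DDP. The 2 transcripts took turns as the larger one within A549 and within A549/DDP. For B2M-207, all A549 libraries were listed at 0, and the values were 0.849, 0.264 and 0.800 FPKM in A549/DDP.

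PARP14, an ADP-ribosyltransferase, represented the ADP-ribosylation and ubiquitin genes among those tested. The sum was 3.68, 1.58 and 1.31 FPKM in A549 and 0.902, 1.23 and 0.582 FPKM in A549/DDP. All A549 libraries were above all A549/DDP libraries, but A549 replicate 1 stood far above the rest and the remaining values lay close together. PARP14 had a log2 fold change of -0.68 (SE 0.31, limma adjusted p = 0.201), and without A549 replicate 1 it was -0.37. PARP14-203, a retained intron over exons 6 to 15, held 83.1% of the sum.

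By single transcript, 19 of the 118 were tested and none was called in either direction. Transcripts under 1 FPKM in every library could not be called on the log2(FPKM + 1) scale. Over all 20663 transcripts tested, 0.353% were called higher and 0.198% lower. An unadjusted limma p under 0.05 was found for 6 of the 19 and for 21.7% of all. The groups did not overlap for 3 transcripts that were higher (of OAS1, ADAR and TAP2) and 3 that were lower (of ISG20, PARP14 and PSMB8), against 18.9% and 8.91% of all transcripts. Those of OAS1 and PSMB8 passed the filter only through the line where they were higher. The median log2 fold change of the 19 was -0.23, with 14 below 0, and that of all transcripts was 0.14, with 8033 of 20663 below 0.

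A further 12 genes had values but stayed under the filter, the highest being 1.08 FPKM for IRF7 in A549 replicate 2. Of these, 9 had the lower mean in A549/DDP and 3 the higher mean, and the groups did not overlap for 2 that were higher and 3 that were lower. Among the 8052 gene sums under the filter and above 0 in some library, the non-overlapping shares were 9.94% (higher) and 5.68% (lower). The directions of their means were not counted. A limma fit without the filter covered 24 of the 27 genes and called none, where 0.166% of all gene sums were called higher and 0.15% lower. The 12 genes under the filter could not be called there, because none reached a mean of 1 in either line on the log2(FPKM + 1) scale. In that fit an unadjusted p under 0.05 was found for 5 of the 24 and for 20% of all gene sums, a like share. IFI27, a mitochondrial protein that is among the most strongly induced interferon targets, was 0.0864, 0.128 and 0.0374 FPKM in A549 and 0.477, 0.808 and 0.477 FPKM in A549/DDP. All A549/DDP libraries were above all A549 libraries, and in the fit without the filter the log2 fold change was 0.54 (limma adjusted p = 0.0717). PARP9, an ADP-ribosyltransferase partner of DTX3L, had no value above 0 in A549 and was 0.0269, 0.0919 and 0.704 FPKM in A549/DDP. Its log2 fold change in the fit without the filter was 0.31 (limma adjusted p = 0.402).

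The other non-overlapping genes under the filter were lower in A549/DDP. IFI44, a GTP-binding effector, was 0.204, 0.317 and 0.287 FPKM in A549 and 0, 0 and 0.118 FPKM in A549/DDP (fit without the filter: log2 fold change -0.29, limma adjusted p = 0.0914). IRF7, the factor that amplifies interferon production, was 0.238, 1.08 and 0.271 FPKM in A549 and 0.0454, 0.170 and 0.0454 FPKM in A549/DDP. STING1, the adaptor of DNA sensing and the only adaptor with values, was 0.0949, 0.370 and 0.904 FPKM in A549 and 0, 0 and 0.0841 FPKM in A549/DDP. In the fit without the filter the log2 fold changes were -0.45 for IRF7 and -0.47 for STING1 (limma adjusted p = 0.294 and 0.251). The FPKM levels of these genes are low, and how many fragments stand behind them is unknown.

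The remaining genes under the filter overlapped between the lines. MX1, a GTPase that traps viral nucleocapsids, was 0.756, 0.340 and 0.137 FPKM in A549 and 0.00441, 0 and 0.178 FPKM in A549/DDP. IFIH1, which encodes the sensor MDA5, was highest in A549 replicate 2 at 0.504 FPKM and did not exceed 0.173 FPKM in A549/DDP. SAMHD1, which breaks down dNTPs, ranged from 0 to 0.440 FPKM in A549 and from 0.111 to 0.373 FPKM in A549/DDP. IFI44L had values only in A549 replicates 2 and 3, and DHX58, which encodes the sensor LGP2, only in A549/DDP replicate 1 at 0.135 FPKM. IFITM1, MX2 and OAS2 were listed at 0 in every library. The other 12 genes were not analysed here: IFI6, IFIT1, IFIT2, IFIT3, IFIT5, IFITM2, IFITM3, ISG15, OASL, RIGI, MAVS and DTX3L. GENCODE 44 annotates only coding transcripts for 6 of them.

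**Figure D3:**
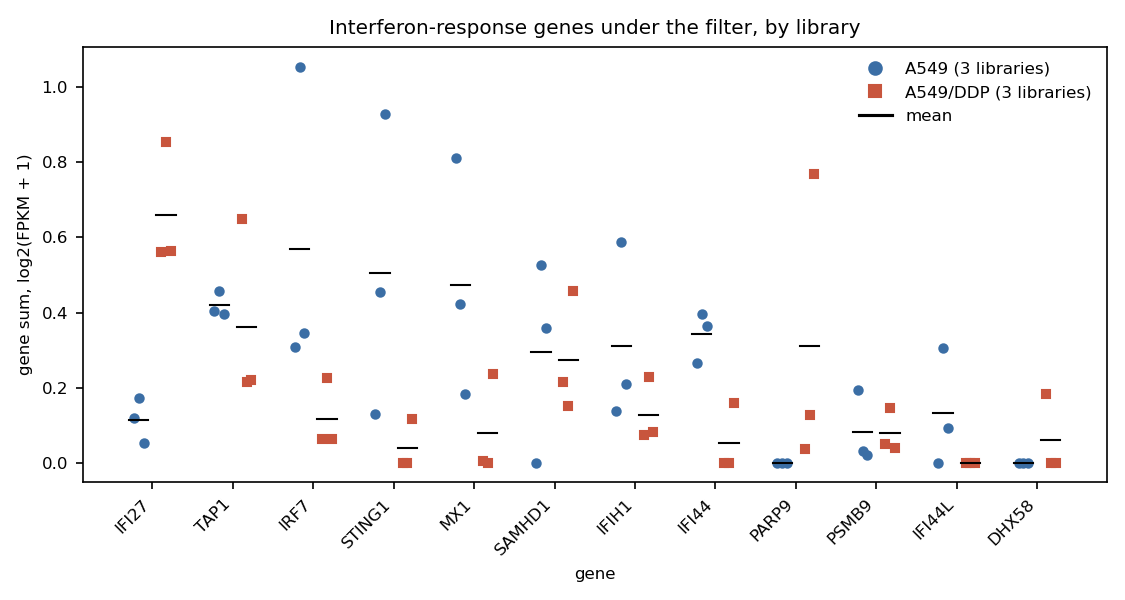
Gene sums of the 12 genes under the filter on the log2(FPKM + 1) scale (vertical axis), with a point for each library of A549 (circles) and A549/DDP (squares) and a bar at the mean. IFI27 and PARP9 are higher and IFI44, IRF7 and STING1 lower in all A549/DDP libraries.

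The genes that lie before and beside these in the pathway were read from 3 further lists. Of 32 ligands, receptors and signalling genes, 20 had values and 13 were tested, of which limma called 1 lower and 0 higher, where 0.963% and 1.39% of all gene sums were called. Their median log2 fold change was 0.30, and 9 of the 13 were above 0, as were 6620 of all 10591 gene sums. The groups did not overlap for 3 higher and 2 lower genes (21.8% and 10.4% of all gene sums). An unadjusted p under 0.05 was found for 5 of the 13, against 27.1% of all. The called gene was TRIM25, the ubiquitin ligase of RIG-I. It was 15.3, 27.0 and 17.1 FPKM in A549 and 4.67, 5.09 and 5.44 FPKM in A549/DDP. The A549/DDP libraries were close together and every A549 library was far above them. The log2 fold change of the sum was -1.74 (SE 0.27, limma adjusted p = 0.00779). Its 6 transcripts are retained introns or have no coding sequence defined, so the sum is not that of the TRIM25 mRNA. None of them was called alone, and the lowest limma adjusted p was 0.0396 (TRIM25-208). TRIM25-204 was 12.7 FPKM in A549 replicate 2 and 1.465 and 1.453 FPKM in A549 replicates 1 and 3. The call ended under 9 of 14 alternatives, among them a pseudocount of 0.01 (adjusted p = 0.0139), the fit without the filter (0.0225) and those that leave out any 1 of the 6 libraries (0.0137 to 0.0384), while the log2 fold change stayed between -1.96 and -1.50 over all alternatives.

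PIAS1, a SUMO ligase that restrains cytokine signalling, and the kinase TBK1 were higher in all A549/DDP libraries (log2 fold changes 0.67 and 0.62), and the receptor kinase JAK1 was lower (-0.67), with limma adjusted p of 0.0935, 0.152 and 0.175.

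Of 45 other interferon-stimulated genes, 37 had values, 16 were tested and none was called by limma (median log2 fold change -0.16, with an unadjusted p under 0.05 for 3 of the 16 and for 27.1% of all gene sums). LGALS3BP, a secreted glycoprotein that binds galectins, was 9.30, 1.35 and 10.9 FPKM in A549 and 0.392, 0.386 and 0.441 FPKM in A549/DDP (log2 fold change -2.23, limma adjusted p = 0.0432). The A549/DDP libraries were almost equal, and A549 replicate 2 was far below the other A549 libraries. LGALS3BP passed the filter only through the A549 libraries. Its 4 transcripts are retained introns, so the sum is not that of its mRNA. The nuclear body protein SP110 (log2 fold change 1.14, limma adjusted p = 0.0618) and APOL2 (0.72, limma adjusted p = 0.129) were higher in all A549/DDP libraries.

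Of 15 other antigen presentation genes, all had values, 13 were tested and none was called by limma (median log2 fold change 0.18, with an unadjusted p under 0.05 for 3 of the 13 and for 27.1% of all gene sums). PSME1, a subunit of the proteasome activator, was 13.4, 9.68 and 10.8 FPKM in A549 and 5.67, 6.70 and 5.32 FPKM in A549/DDP. ERAP1, which trims peptides, was 0.354, 0.102 and 0.278 FPKM in A549 and 0.807, 0.983 and 1.86 FPKM in A549/DDP. The groups did not overlap for either gene, with PSME1 lower (log2 fold change -0.83, limma adjusted p = 0.0605) and ERAP1 higher (0.81, limma adjusted p = 0.0592) in A549/DDP. ERAP1 passed the filter only through the A549/DDP libraries.

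**Figure D4:**
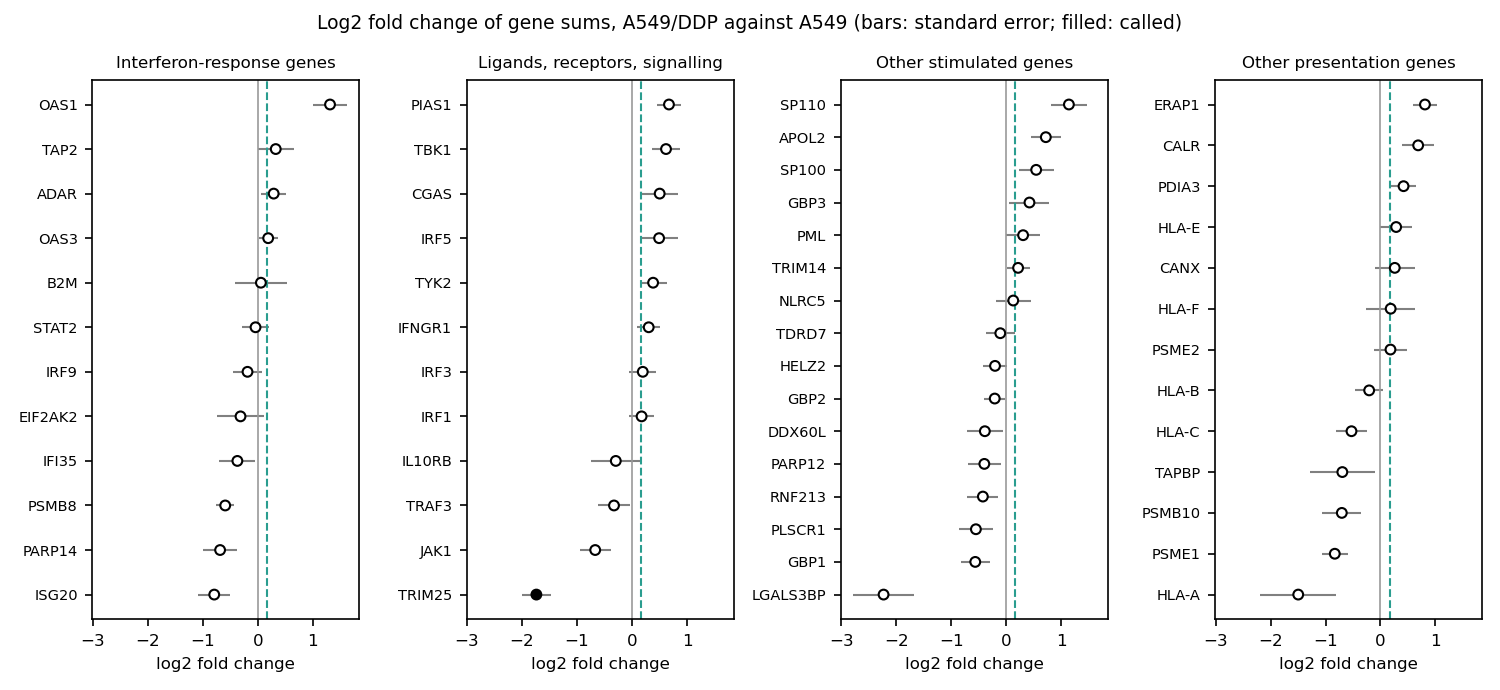
Log2 fold change of gene sums, A549/DDP against A549, on the log2(FPKM + 1) scale (horizontal axis), for the 12 tested genes and genes of the 3 further lists, with bars for the standard error, filled points for called genes and a dashed line at the median of all gene sums, 0.17. TRIM25 is the one filled point, at -1.74, and OAS1 lies farthest above 0 among the 12 tested genes. Of the signalling genes, 1 is not drawn.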

How the data were processed

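The deposited values are FPKM per transcript, in a table for each of the 6 libraries, which share 81818 transcripts. The libraries were depleted of rRNA. According to the methods of the authors, reads were aligned to hg38 with HISAT2 and transcripts were assembled and quantified with the Cufflinks tools, while the submitters' processing notes name CASAVA, HISAT2, StringTie and DESeq2, without versions. Which of them made the FPKM is not given in the sources used here. A transcript name was taken from GENCODE 44 where gene ID and span matched, as for 87.1% of the transcripts. A span does not show the exons inside it.

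Features that reached 0.5 FPKM in 3 or more of the 6 libraries were compared, as gene sums and as transcripts, on log2(FPKM + 1) with limma 3.58.1 (R 4.3.3, variance trend), with Benjamini-Hochberg adjustment over all features tested. Features were called at an adjusted p under 0.01 where the log2 fold change exceeded 1 in size. The code was tested on simulated data. Alternatives were quantile and median-ratio scaling, pseudocounts of 0.1 and 0.01, no filter, a filter at 2 FPKM, array weights, the replicate number as a block and leaving out each library. Promoter windows are from RefSeq. Tables and figures were made with Python 3.11.15, pandas 2.3.3, numpy 2.4.6 and matplotlib 3.10.9.

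The genes and the lists were chosen with earlier results of these data known. Values of each library are given for genes with a call, for genes with non-overlapping groups and an absolute log2 fold change of at least 0.58, and for the highest gene of each role. In the further lists, called genes and up to 4 others with the largest change among those with non-overlapping groups are named. The single transcripts, PSMB8-AS1 and the other genes given by library were chosen after their values were seen. Results for a few items were left out.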

Additional observations from a re-analysis of the deposited data

How the results depend on the processing

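None of the tested genes or their transcripts was called under any of the 14 alternatives, and the lowest adjusted p of a gene was 0.0246 (PSMB8, quantile normalization). PSMB8 and OAS3 could not be called where log2(FPKM + 1) was taken of unscaled values. Fits without the filter, with a filter at 2 FPKM or with the replicate block leave the log2 fold change unchanged and cannot reverse it. Of 163 fits of single genes, these included, 155 kept their direction. The 8 others were of 3 genes with small differences: B2M (log2 fold change -0.18 with median-ratio scaling, -0.047 with array weights, and -0.25, -0.29 and -0.10 without A549 replicate 3, A549/DDP replicate 2 and A549/DDP replicate 3), TAP2 (-0.015 without A549 replicate 2) and STAT2 (0.12 without A549 replicate 3 and 0.07 without A549/DDP replicate 2). Over all single libraries left out, the ranges were -0.29 to 0.56 for B2M, -0.015 to 0.61 for TAP2 and -0.17 to 0.12 for STAT2. The cause was not tested. Over all gene sums, the 147 higher and 102 lower calls became 49 and 41 at a pseudocount of 0.01 and 31 and 28 without the filter, which tests more gene sums. Median-ratio scaling gave 94 higher calls. Leaving out single libraries gave 34 to 68 higher and 23 to 60 lower calls, with fewer samples in each fit.

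The replicate numbers did not pair the libraries: deviations of same-numbered libraries from their group means correlated at 0.00412, -0.0456 and -0.0233. With the replicate block, 36 gene sums were called higher and 35 lower. The block ended the call of TRIM25 (adjusted p = 0.0209), and none of the tested genes was called with it. The tables give no read numbers, so precision at low FPKM is unknown, and differences of genes under about 1 FPKM rest on the least signal.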
